A study of Mus musculus with 9 samples.

Results

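The genes described here are those whose RNA level in CD4 ThpokAD memory T cells lay outside the range of both control memory populations at once. A gene was taken as a member when its values in the 3 ThpokAD libraries were all above the highest, or all below the lowest, of the 6 control libraries. Of 15738 genes tested, 1035 (6.58%) met this rule, 671 (4.26%) above the controls and 364 (2.31%) below them. The rule reads measured values, so the lack of overlap is a description of these libraries and carries no test.

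The cells were T cells specific for lymphocytic choriomeningitis virus (LCMV), taken 30 days after infection with the Armstrong strain and sorted from spleen by tetramer staining. CD4 control cells bound the class II tetramer I-Ab with the viral peptide GP66 and came from mice without the Ox40-Cre transgene. CD4 ThpokAD cells bound that same tetramer and came from mice labelled Ox40-Cre+ Thpokfl/fl, in which Cre is driven from Ox40, a costimulatory receptor gene switched on in activated CD4 T cells. CD8 control cells bound the class I tetramer H-2Db with the viral peptide GP33 and came from mice without Ox40-Cre. Each group had 3 libraries. Cre was present in the ThpokAD group alone, and loss of Thpok cannot be told apart from the presence of Cre itself; between the controls lineage, viral peptide and tetramer class change together. The labels read here state neither which Thpok alleles the control mice had nor the age of any mouse.

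Thpok, the zinc-finger factor encoded by Zbtb7b, commits thymocytes to the helper fate and holds back CD8-lineage and cytotoxic genes, in part by opposing Runx factors. Memory T cells are mostly resting cells that live on interleukin 7, whereas effector T cells divide, carry granzymes and release chemokines. The mean of both controls, with equal weight for each, was the reference for the main comparison, and the comparison with each control alone was set beside it. A gene that sits between helper and cytotoxic cells, such as Cd4 or Cd8a, is by construction no member. Cd4 was 679, 675 and 551 CPM (counts scaled to the library total) in the ThpokAD libraries, against 1295 to 1409 in CD4 control and at most 2.26 in CD8 control cells. Cd8a was 64.5, 50.1 and 34.2 CPM in ThpokAD cells, 2.74 to 4.20 in CD4 control and 743 to 913 in CD8 control cells.

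The libraries held 16664474 to 38981516 counts, and 99.8% to 99.9% of each, rounded, lay in tested genes. Levels are CPM on library sizes scaled by TMM, edgeR's trimmed mean method, and a gene was called where edgeR's quasi-likelihood test gave a Benjamini-Hochberg adjusted p under 0.05 over all tested genes. Whether replicates came from separate animals is not in the labels; each p-value is therefore set against the scatter of these libraries alone, and that scatter may be technical. In bulk RNA, fewer cells of a type and less RNA per cell cannot be told apart. All 11 T cell markers were detected in every ThpokAD library. None of the 12 B cell, 8 tested plasma cell or 13 tested dendritic cell and MHC class II markers lay outside the control range. Against the mean, Irf4 of the plasma cell list (adjusted p = 0.00258) and Cd74 and H2-Ab1 of the dendritic list (0.0271 and 0.0476) were called higher. Irf4 was 115 to 158 CPM in ThpokAD, 121 to 135 in CD4 control and 1.58 to 5.48 in CD8 control libraries. The dendritic list summed to 922 to 1843 CPM in ThpokAD, 932 to 1674 in CD4 control and 342 to 454 in CD8 control cells. Of 19 myeloid markers tested, 4 lay above both controls (C1qc, Cd68, Csf1r and Vcam1), where 4.26% of all tested genes did. The summed myeloid list was 771 to 1056 CPM in ThpokAD cells, 503 to 794 in CD4 control and 312 to 548 in CD8 control cells. Of the 19, 3 were called higher, all of them among these 4, and none lower, against 2.64% and 0.604% of all tested genes. Other macrophage genes of the list varied. C1qa was 14.8 to 35.9 CPM in ThpokAD and 6.21 to 15.4 in control libraries, with overlap. C1qb was 43.3 to 89.6 against 17.9 to 54.1 CPM, also with overlap. Adgre1 was 10.1 to 67.9 CPM in ThpokAD, 27.0 to 39.2 in CD4 control and 2.38 to 19.1 in CD8 control libraries. Mrc1 was 7.80 to 34.7, 9.54 to 26.3 and 2.51 to 5.18 CPM in that order of groups. Cebpb, at 56.8 to 76.8 CPM in ThpokAD, lay between CD4 control (87.4 to 98.8) and CD8 control libraries (11.5 to 22.6). Lyz2 overlapped with the controls at 46.5 to 122 CPM. The neutrophil and progenitor genes Elane and Mpo had no count in ThpokAD libraries and Ly6g was at most 0.0547 CPM, but these genes were also low in the controls, at most 5.09 CPM. Without CD4 control replicate 3 the number of myeloid markers above both controls was 7, and without ThpokAD replicate 3 it was 10. The part of these cells in the results below was not tested.

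Against the mean of both controls, 415 genes (2.64%) were called higher in ThpokAD cells and 95 (0.604%) lower, 3.24% in all. Members made up 214 of the higher genes, which is 1.36% of all tested genes, and 71 of the lower genes, 0.451%. The other 201 higher and 24 lower genes passed the test although their ThpokAD values overlapped with control values, among them Prf1 and Klrg1, where ThpokAD and CD8 control cells overlapped. Called members above the controls had a median change of 3.48-fold against the mean of both controls, and those below 2.00-fold. The nearest control library lay a median of 1.43-fold away for called members above and 1.33-fold for called members below. Over all 671 members above and 364 below, called or not, these medians were 1.22-fold and 1.11-fold. At the edge of the rule, the lowest ThpokAD library of Itgal, an integrin chain, was 1758 CPM against 1753 in the highest control, while Rgcc just missed with 116 against 118 CPM. Leaving out a library moved the counts: without ThpokAD replicate 1, 2 or 3 the called higher genes numbered 183, 222 and 210 and the called lower genes 30, 56 and 35. Without CD4 control replicate 1 the numbers were 268 and 44, and without CD4 control replicates 2 and 3 the lower genes were 55 and 53.

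The controls were also compared with each other, in the same fit and on the same libraries that set the range of the rule. Of the 214 called members above, 31 (14.5%) were higher in CD8 than in CD4 control cells, 45 (21.0%) were higher in CD4 than in CD8 control cells, and 138 (64.5%) did not pass that test. Among all tested genes the corresponding shares were 5.13%, 6.55% and 88.3%. Among all 671 genes above both controls, called or not, they were 4.77%, 7.15% and 88.1%. Of the 71 called members below, 6 were higher in CD8 control cells, 8 in CD4 control cells, and 57 did not pass. Members above thus included genes with no called difference between the controls, which does not show equal levels, and genes called higher in 1 of them.

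**Figure D1:**
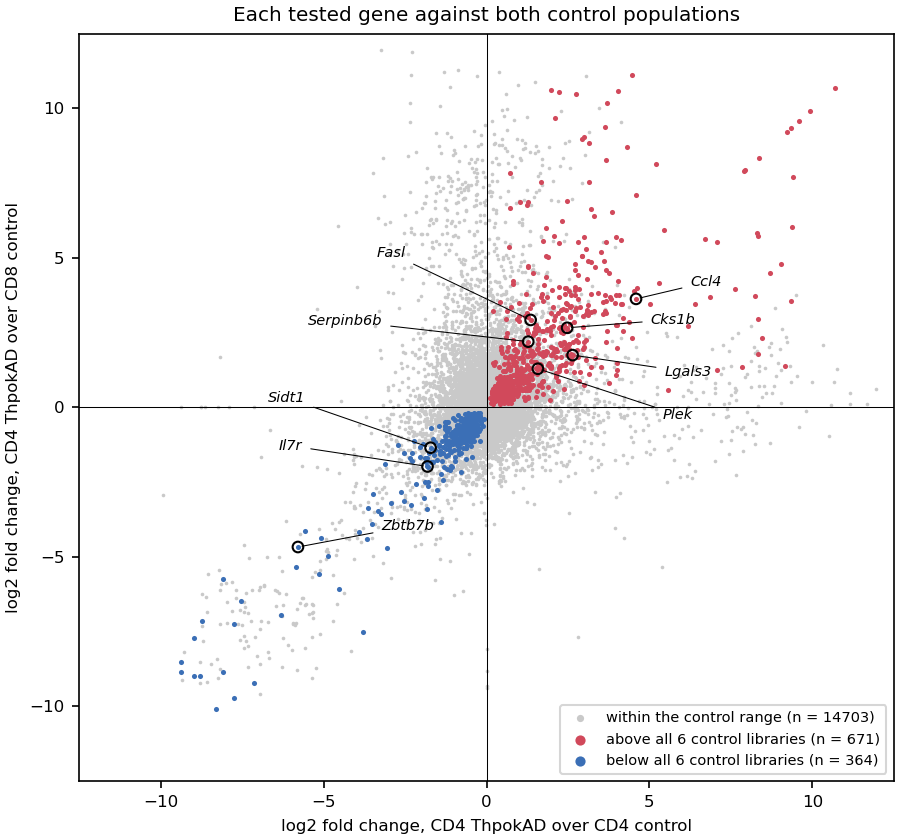
Each point is 1 of 15738 tested genes, with its log2 fold change over CD4 control on the horizontal axis and over CD8 control on the vertical axis. Red points (671) lie above all 6 control libraries and blue points (364) below; the 9 ringed genes passed the test against both controls.

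A stricter test asked whether a gene differed from CD4 control and from CD8 control in the same direction, taking the larger of its 2 p-values before adjustment over all tested genes. It called 6 genes higher (0.0381%) and 3 lower (0.0191%), 0.0572% in all. At an unadjusted p under 0.05, 340 genes were higher and 325 lower. ThpokAD cells had 285 higher genes (1.81%) and 146 lower (0.928%) against CD4 control cells, and 729 higher (4.63%) and 301 lower (1.91%) against CD8 control cells. These comparisons share the ThpokAD libraries. The number passing the stricter test moved with the tool, from 9 in edgeR to 19 with limma-trend and 173 with DESeq2, each of which included these 9.

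The 3 genes below both controls were the deleted gene and 2 membrane proteins. Zbtb7b (chr3:89377644-89394776) was 38.5, 47.6 and 48.9 CPM in CD4 control, 0.698, 0.875 and 0.849 in ThpokAD, and 24.0, 19.4 and 18.8 in CD8 control libraries. Its level fell by 5.79 ± 0.26 (SE) on the log2 scale against CD4 control and by 4.68 ± 0.25 against CD8 control cells (adjusted p of the test against both = 0.000304). Reads of an antisense transcript, Gm15417, cannot be told apart from those of Zbtb7b where their exons overlap, since strand was not marked.

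Il7r (chr15:9505788-9530176) encodes the interleukin 7 receptor alpha chain, through which resting memory T cells receive their survival signal. It was 1308, 1041 and 976 CPM in CD4 control, 361, 306 and 278 in ThpokAD, and 1227, 1243 and 1261 in CD8 control libraries. The lowest control library, at 976 CPM, stood above the highest ThpokAD library, at 361, and the controls did not pass a test between themselves (adjusted p = 0.501). The decrease was 3.52-fold against CD4 control and 3.94-fold against CD8 control cells (adjusted p against both = 0.00216).

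Sidt1 (chr16:44240180-44333196), a transmembrane protein of the family that carries RNA across membranes, was 656, 626 and 561 CPM in CD4 control, 195, 182 and 184 in ThpokAD, and 478, 451 and 500.5 in CD8 control libraries. It fell 3.29-fold and 2.55-fold against the CD4 and CD8 controls (adjusted p against both = 0.00216). Its exons overlap those of the opposite-strand transcript Gm26732.

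Plek (chr11:16971206-17052381), which encodes pleckstrin, a substrate of protein kinase C in blood cells, was 278, 319 and 260 CPM in CD4 control, 819, 894 and 840 in ThpokAD, and 348, 348 and 348 in CD8 control libraries. The increase was 2.98-fold over CD4 control and 2.44-fold over CD8 control cells (adjusted p against both = 0.00217), and the exons overlap those of Cnrip1 on the other strand. Zbtb7b, Il7r, Sidt1 and Plek passed the test against both controls in all 9 fits that left out 1 library, with adjusted p up to 0.0371.

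Ccl4 (chr11:83662584-83664683), an inflammatory chemokine, was 30.9, 77.9 and 49.8 CPM in CD4 control, 957, 1433 and 1427 in ThpokAD, and 86.4, 68.3 and 154 in CD8 control libraries. The lowest ThpokAD library, at 957 CPM, stood far above the highest control, at 154. The rise was 24.0-fold over CD4 control and 12.4-fold over CD8 control cells (adjusted p against both = 0.0219).

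Cks1b (chr3:89415472-89418383) encodes a small subunit that binds cyclin-dependent kinases. Its values were 5.09, 5.94 and 6.29 CPM in CD4 control, 36.1, 30.2 and 30.0 in ThpokAD, and 5.18, 4.51 and 5.52 in CD8 control libraries. Both controls stood at nearly the same level, and the rise was 5.55-fold and 6.32-fold (adjusted p against both = 0.0110). This gene lies 20696 bp from Zbtb7b. Of 23 tested genes within 250 kb of Zbtb7b, 2 were above both controls, Cks1b and Dcst1, and 1 of them, Cks1b, was called. Among all tested genes 4.26% were above both controls and 1.36% were above and called.

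Fasl (chr1:161780689-161788495), the death ligand that engages Fas, was 440, 365 and 324 CPM in CD4 control, 853, 970 and 1061 in ThpokAD, and 123, 114 and 144 in CD8 control libraries. Its order was thus ThpokAD, CD4 control, CD8 control with no overlap, and the rise was 2.55-fold over CD4 control and 7.58-fold over CD8 control cells (adjusted p against both = 0.0193). Serpinb6b (chr13:32965209-32979067), an intracellular serine protease inhibitor, was 173, 145 and 140 CPM in CD4 control, 397, 350 and 364 in ThpokAD, and 74.8, 90.5 and 76.9 in CD8 control libraries. It rose 2.43-fold and 4.59-fold (adjusted p against both = 0.0110), in the same order of groups as Fasl. Close paralogs of Serpinb6b lie nearby, so its count could be shared with them.

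Lgals3 (chr14:47367751-47386160), the beta-galactoside-binding lectin galectin-3, was 45.1, 56.8 and 51.0 CPM in CD4 control, 421, 276 and 257 in ThpokAD, and 115, 84.6 and 84.4 in CD8 control libraries. It rose 6.24-fold over CD4 control and 3.35-fold over CD8 control cells (adjusted p against both = 0.0433). In the test against both controls, 5 of the 9 genes did not pass in every fit that left out a library. Without CD4 control replicate 3 or any 1 of the ThpokAD replicates, Ccl4, Cks1b, Fasl, Serpinb6b and Lgals3 no longer passed, with adjusted p up to 0.162. Lgals3 also failed in the other 5 fits that left out a library, Cks1b without CD4 control replicates 1 and 2 and CD8 control replicate 1, and Ccl4 without CD8 control replicates 1 and 2. Fasl failed without CD4 control replicate 2 and CD8 control replicate 1, and Serpinb6b without CD4 control replicate 2. All 9 genes stayed called against the mean of both controls in every one of the 9 fits.

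**Figure D2:**
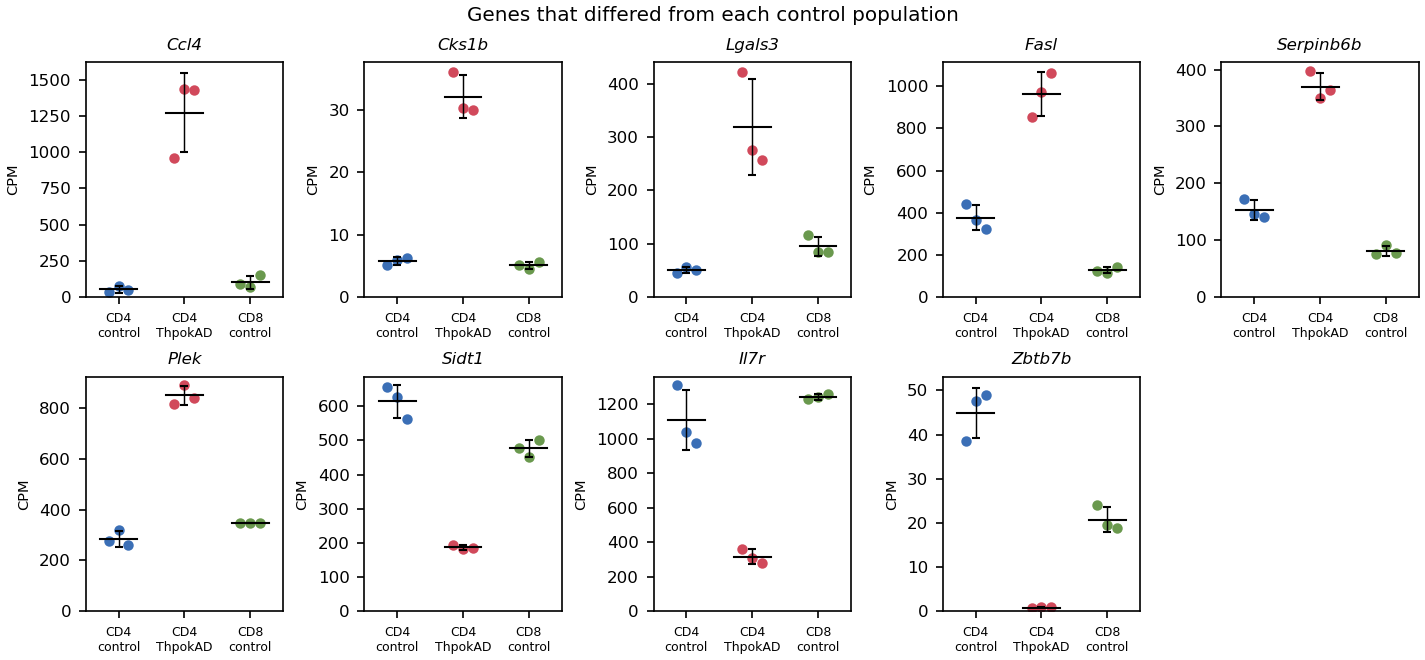
CPM of the 9 genes that differed from both controls, by group on the horizontal axis. Points are libraries (3 per group), horizontal lines are means and bars are SD; in every panel the 3 ThpokAD points lie apart from all 6 control points.

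Cell division genes were the most frequent group among the members. Progress through DNA synthesis is driven by E2F factors, which act on replication genes, and the later mitotic genes are switched on by complexes that bind promoter elements called CHR and CCAAT boxes. Of 59 tested genes of mitosis and the G2/M phases, 44 lay above both controls and none below, where 4.26% and 2.31% of all tested genes did. The test against the mean called 23 of the 59 higher and none lower, against 2.64% and 0.604% of all tested genes. The median change of the list was 2.86 on the log2 scale against 0.03 for all tested genes. Of 48 DNA replication genes, 25 lay above and none below, 14 were called higher and none lower, and the median was 1.05. Summed over the list, mitotic genes were 2577 to 3936 CPM in ThpokAD cells, 1022 to 1234 in CD4 control and 1042 to 1352 in CD8 control cells. The replication list summed to 2928 to 3477 CPM in ThpokAD cells, 1551 to 1677 in CD4 control and 1654 to 1980 in CD8 control cells. The called mitotic genes numbered 13 without ThpokAD replicate 1 and 14 without ThpokAD replicate 3. The called replication genes numbered 5, 8 and 8 without ThpokAD replicates 1, 2 and 3, and 9 without CD4 control replicate 2.

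Promoters of these genes are shown because CCAAT boxes were frequent in members of both lists, CHR letters in the mitotic and E2F letters in the replication members. The sequences are from RefSeq (GRCm38.p6, the mm10 assembly), 250 bases up to the annotated start, 5′ to 3′ on the gene's strand. Capitals mark the CHR letters TTTGAA, the CCAAT box and the E2F letters TTCCCGC or TTTGGCG, each on either strand. The mitotic genes Cks1b and Cdk1 stand at chr3:89418292-89418541 and chr10:69352913-69353162, both on the minus strand.
Cks1b: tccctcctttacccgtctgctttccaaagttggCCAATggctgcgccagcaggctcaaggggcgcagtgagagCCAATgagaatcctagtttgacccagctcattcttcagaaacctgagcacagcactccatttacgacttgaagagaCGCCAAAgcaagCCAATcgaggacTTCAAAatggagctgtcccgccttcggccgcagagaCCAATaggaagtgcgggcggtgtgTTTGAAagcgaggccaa
Cdk1: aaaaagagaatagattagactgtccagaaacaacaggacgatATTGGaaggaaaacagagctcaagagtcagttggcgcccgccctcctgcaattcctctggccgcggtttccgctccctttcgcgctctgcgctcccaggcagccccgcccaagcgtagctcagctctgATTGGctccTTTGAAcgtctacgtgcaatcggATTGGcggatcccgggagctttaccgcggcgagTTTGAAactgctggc
The replication genes Mcm5 and Uhrf1 stand at chr8:75109259-75109508 and chr17:56303087-56303336 on the plus strand.
Mcm5: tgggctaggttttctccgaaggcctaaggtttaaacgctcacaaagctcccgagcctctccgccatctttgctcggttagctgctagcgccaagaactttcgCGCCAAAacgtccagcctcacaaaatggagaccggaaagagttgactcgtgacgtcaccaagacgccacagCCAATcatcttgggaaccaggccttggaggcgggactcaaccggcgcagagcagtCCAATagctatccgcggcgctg
Uhrf1: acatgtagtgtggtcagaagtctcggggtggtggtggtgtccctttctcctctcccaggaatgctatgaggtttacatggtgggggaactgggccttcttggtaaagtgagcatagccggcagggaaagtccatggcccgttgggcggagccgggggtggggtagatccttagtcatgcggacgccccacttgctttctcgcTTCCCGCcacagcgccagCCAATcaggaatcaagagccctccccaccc
In Cks1b the CHR letters nearest the start begin 17 bases upstream, with a CCAAT box 41 bases upstream. In Cdk1 they begin 15 bases upstream, with a CCAAT box on the other strand at 48. These distances are from the RefSeq start and depend on it. The GENCODE genes Cks1b, Cdk1 and Uhrf1 begin inside the printed sequences, at chr3:89418383, chr10:69352938 and chr17:56303321.

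Over the whole RefSeq window, from 250 bases before to 50 after the start, TTTGAA was present on either strand in 25 of the 34 mitotic members above both controls that have a promoter in the table (73.5%). It was present in 18.1% of all 27025 promoters and in 12.0% of the 9445 promoters of tested genes. CHR letters and a CCAAT box occurred together in 61.8% of these members and in 7.12% of all promoters. Of the 15 mitotic genes that did not lie above both controls 13 have a promoter in the table. Of these, 46.2% held TTTGAA and 30.8% held both CHR letters and a CCAAT box. The CCAAT box was present in 73.5% of the mitotic and 71.4% of the replication members, and in 37.9% of all promoters. Among genes of these lists that were not members, 61.5% of the mitotic and 47.1% of the replication promoters held it. CHR letters were present in 19.0% of the replication members and in 11.8% of the replication genes that were not members. Their share was 18.1% in all promoters and 12.0% in those of tested genes. E2F letters were present in 5.88% of the mitotic members. E2F letters were present in 52.4% of the 21 replication members with a promoter in the table and in 58.8% of the 17 replication genes with one that were not members. They were present in 6.07% of all promoters and in 10.9% of those of tested genes. CHR letters can share bases with a CCAAT box on the other strand. A match describes letters in this window and shows no binding.

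Among mitotic members, Stmn1, the microtubule-destabilising protein stathmin, was 5.78, 7.37 and 5.48 CPM in CD4 control, 60.7, 46.0 and 49.0 in ThpokAD, and 13.8, 6.88 and 12.2 in CD8 control libraries. It rose 8.35-fold over CD4 control and 4.73-fold over CD8 control cells (adjusted p against the mean = 0.000776), just missing the test against both (adjusted p = 0.0547). Kif20a, a kinesin of the central spindle, was 2.30, 6.06 and 5.77 CPM in CD4 control, 47.1, 18.4 and 34.7 in ThpokAD, and 1.88, 3.10 and 1.48 in CD8 control libraries. The rise was 10.5-fold over the mean of both controls (adjusted p = 0.00381). ThpokAD replicate 1 was the highest of the 3 for both genes.

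Ccnb1, the cyclin B1 partner of Cdk1, was 43.3, 35.2 and 20.6 CPM in ThpokAD libraries and 2.34 to 9.20 in the controls (7.76-fold over the mean, adjusted p = 0.00528). Cdca8, the borealin subunit of the chromosomal passenger complex, was 72.3, 36.4 and 57.4 CPM in ThpokAD libraries and 2.97 to 12.1 in the controls (7.90-fold, adjusted p = 0.00552). Spc24 of the kinetochore NDC80 complex and Tacc3, a spindle microtubule protein, rose 9.28-fold and 3.16-fold (adjusted p = 0.00479 and 0.00299). These 6 genes kept their call against the mean whichever library was left out. Cdk1, the mitotic kinase, was 61.0, 21.7 and 27.1 CPM in ThpokAD and 1.60 to 8.92 in control libraries (adjusted p = 0.0155), and lost the call without ThpokAD replicate 1 (adjusted p = 0.0898).

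The proliferation markers Mki67 and Plk1 lay above both controls without passing the test. Mki67 was 22.5, 46.1 and 29.3 CPM in CD4 control, 296, 171 and 218 in ThpokAD, and 28.6, 0 and 3.08 in CD8 control libraries (adjusted p against the mean = 0.0806). Without CD8 control replicate 1 or 2 its adjusted p was 0.0127 and 0.0311. The mitotic kinase Plk1 was 37.5, 31.6 and 24.2 CPM in ThpokAD libraries and 0 to 4.78 in the controls (adjusted p = 0.0581, and 0.0317 without CD4 control replicate 2).

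Replication members covered licensing, checkpoint and chromatin assembly. Mcm5, a subunit of the replicative helicase, was 40.3, 34.2 and 50.1 CPM in CD4 control, 149, 150.5 and 189 in ThpokAD, and 61.7, 45.9 and 88.0 in CD8 control libraries. It rose 3.92-fold and 2.496-fold over the CD4 and CD8 controls (adjusted p against the mean = 0.00425). Uhrf1, which guides maintenance DNA methylation, was 66.0, 59.7 and 63.1 CPM in ThpokAD libraries and 6.25 to 24.6 in the controls (4.39-fold over the mean, adjusted p = 0.00532). Asf1b, a histone chaperone, was 112, 62.5 and 70.1 CPM in ThpokAD libraries and 11.8 to 31.0 in the controls (adjusted p = 0.00825). Clspn, the checkpoint adaptor claspin, was 15.5, 9.02 and 15.01 CPM in ThpokAD libraries and at most 0.616 in any control (adjusted p = 0.0100). The 4 genes were called in every fit that left out a library. Cdkn2c, an inhibitor of the G1 kinases Cdk4 and Cdk6, was also above both controls, with 22.3, 17.5 and 23.4 CPM in ThpokAD and 2.91 to 6.66 in control libraries (adjusted p = 0.00627).

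**Figure D3:**
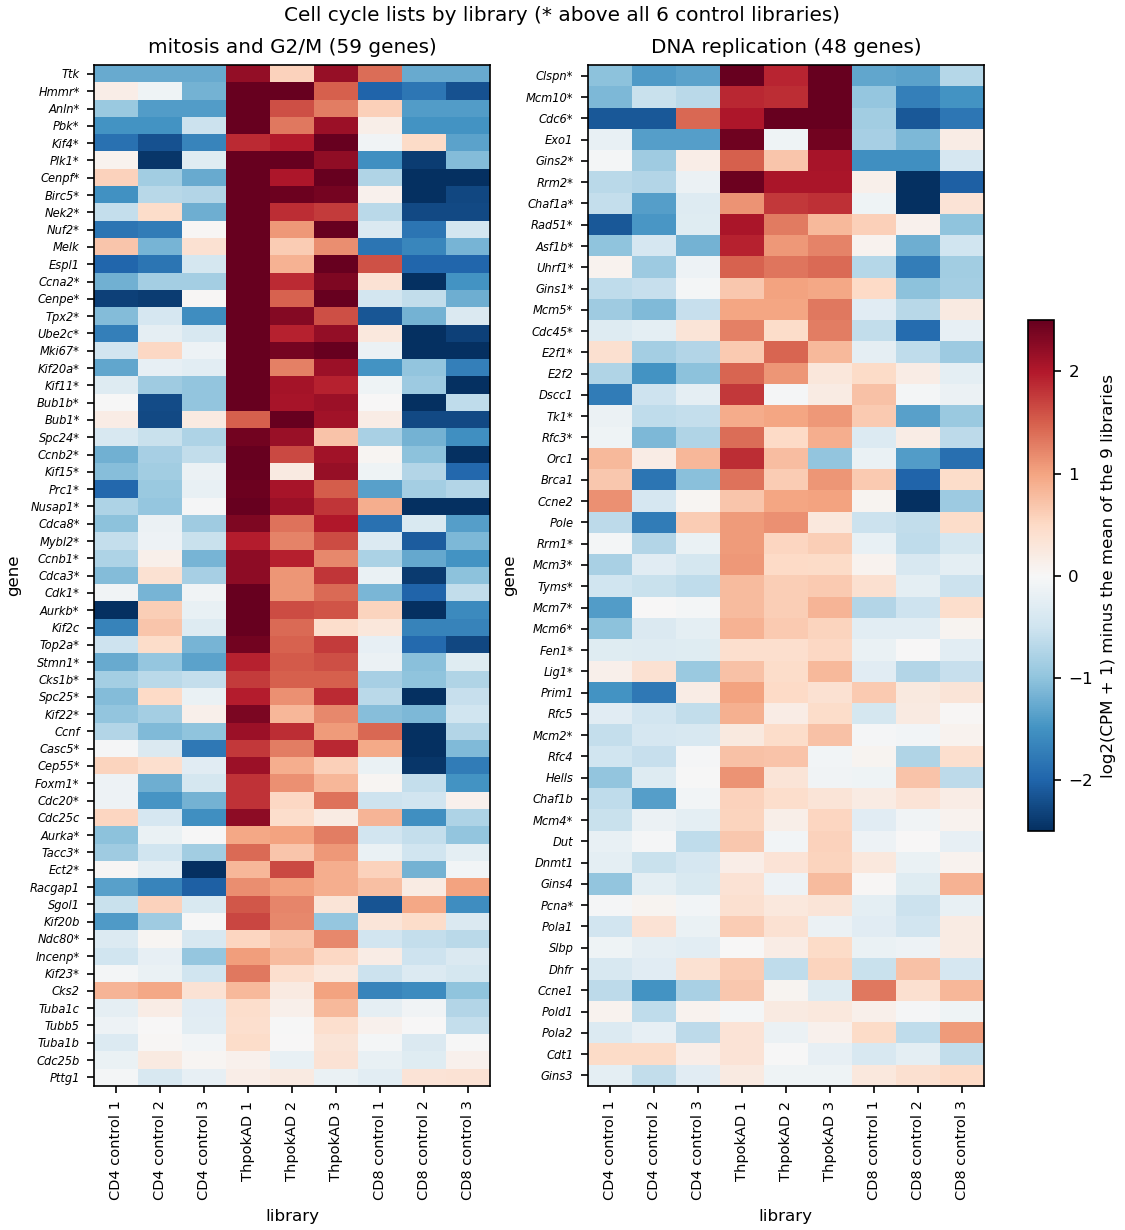
Mitosis and DNA replication genes (rows) in each library (columns). Colour is log2(CPM + 1) minus the gene's mean over the 9 libraries, limited at 2.5 either way, and asterisks mark the 44 and 25 genes above both controls; ThpokAD columns are redder than the control columns for most rows.

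Effector genes formed another group, and many of them differed between the controls. Of 29 tested terminal effector genes 9 lay above both controls and none below, and 16 were called higher. Among all tested genes 4.26% lay above, 2.31% lay below and 2.64% were called higher. Between the controls, 20 of the 29 were higher in CD8 than in CD4 control cells, as were 5.13% of all tested genes. Among 25 cytotoxic granule genes 5 lay above, all called, and 6 more were called within the control range. Without CD8 control replicate 3, which was the deepest library, 15 terminal effector and 8 cytotoxic genes lay above both controls. Leaving out any library loosens the rule, and over all tested genes the number above went from 671 to 886 in that fit.

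Gzma, the granule protease granzyme A, was 2.30, 7.83 and 5.19 CPM in CD4 control, 1034, 1056 and 1418 in ThpokAD, and 635, 248 and 482 in CD8 control libraries. The rise over CD4 control was 228-fold (adjusted p = 0.000286), and the 2.57-fold difference from CD8 control cells did not pass (adjusted p = 0.0873). Gzmb, granzyme B, was 50.0, 51.3 and 34.3 CPM in CD4 control, 820, 695 and 649 in ThpokAD, and 307, 236 and 361 in CD8 control libraries. It rose 16.0-fold over CD4 control (adjusted p = 0.000122) and 2.39-fold over CD8 control cells (adjusted p = 0.00753), but the test against both gave an adjusted p of 0.115. The pore-forming protein gene Prf1, by contrast, was 496 to 561 CPM in ThpokAD and 454 to 582 in CD8 control libraries, and was no member.

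Cx3cr1, the fractalkine receptor of circulating effector cells, was 8.01, 8.34 and 5.24 CPM in CD4 control, 328, 294 and 414 in ThpokAD, and 228, 206 and 257 in CD8 control libraries. Its rise was 47.9-fold over CD4 control cells (adjusted p = 3.35e-05) and its 1.498-fold difference from CD8 control cells did not pass (adjusted p = 0.119). Klrc1, an inhibitory receptor of the NKG2 family, was 92.4 to 150 CPM in CD4 control, 603, 579 and 686 in ThpokAD, and 368 to 438 in CD8 control libraries (adjusted p against the mean = 0.000992). Near-identical stretches of Klrc2, its neighbour on chromosome 6, make the split between them uncertain. NK cell markers were above both controls for 4 of 11 tested genes, where 4.26% of all tested genes were. Their sum was 1434 to 1958 CPM in ThpokAD, 206 to 210 in CD4 control and 540 to 934 in CD8 control cells. Gzma made up most of the ThpokAD sum. The 4 above were Gzma, Nfil3, Klri2 and Tyrobp. The 4 of 11 called higher were Gzma, Nfil3, Eomes and Klra4, where 2.64% of all tested genes were called higher. Klrb1c was 52.3 to 94.9 CPM in ThpokAD, 5.20 to 14.8 in CD4 control and 115 to 126 in CD8 control libraries. Klre1 was 15.5 to 36.4 CPM in ThpokAD, at most 2.91 in CD4 control and 14.1 to 43.9 in CD8 control libraries. Ncr1, which defines NK cells, was 0 to 3.18 CPM in ThpokAD, 0 in CD4 control and 0 to 7.75 in CD8 control libraries. Klra8 had no count in ThpokAD or CD4 control libraries and was at most 1.95 CPM in CD8 control libraries. The part of NK cells in these results was not tested.

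Transcription factor genes were members as well, 8 of 55 tested above both controls and 3 below, where 4.26% and 2.31% of all tested genes were. Prdm1, the repressor Blimp-1, was 25.5, 42.9 and 37.2 CPM in CD4 control, 123, 126 and 146 in ThpokAD, and 38.7, 60.5 and 43.8 in CD8 control libraries (3.74-fold and 2.76-fold, adjusted p against the mean = 0.00280). Bhlhe40, a repressor that supports cytokine output of helper cells, was 1374, 1424 and 1296 CPM in CD4 control, 2282, 2309 and 2669 in ThpokAD, and 144, 121 and 154 in CD8 control libraries. This gene had a CD4 pattern in the controls, and ThpokAD cells exceeded CD4 control cells 1.77-fold (adjusted p = 0.00641). Nfil3, a basic leucine zipper factor, followed the same order at 131 to 149, 169 to 249 and 21.3 to 24.7 CPM, but its 1.55-fold difference from CD4 control cells did not pass (adjusted p = 0.0784). Ikzf3, the Ikaros family factor Aiolos, was 178 to 189 CPM in CD4 control, 407 to 537 in ThpokAD and 234 to 304 in CD8 control libraries (adjusted p against the mean = 0.00260).

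Cytokine and chemokine genes were also outside the range of the controls. Of 28 tested cytokines and chemokines 7 lay above and 2 below, and of 41 chemokine receptors and integrins 7 lay above and 1 below. The shares among all tested genes were 4.26% above and 2.31% below. Ccl3, next to Ccl4 on chromosome 11, was 2.73, 22.2 and 14.3 CPM in CD4 control, 215, 226 and 280 in ThpokAD, and 18.5, 26.5 and 44.8 in CD8 control libraries (18.3-fold and 8.02-fold, adjusted p against the mean = 0.00612). Xcl1, the lymphotactin that attracts cross-presenting dendritic cells, was 18.01, 18.2 and 18.9 CPM in ThpokAD and 0.171 to 3.25 in control libraries (adjusted p = 0.00718). Ifng, the interferon gamma gene, was 162, 229 and 257 CPM in CD4 control, 338, 459 and 518 in ThpokAD, and 82.4, 72.7 and 144 in CD8 control libraries (adjusted p against the mean = 0.00983, and 0.0505 without ThpokAD replicate 3).

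Regulatory and tissue-residency lists had members among genes nearly silent in 1 or both controls. Of 23 tested regulatory T cell (Treg) genes 7 lay above and 1, Nt5e, below. Of 21 residency genes 7 lay above and 1, Cdh1, below. Nt5e and Cdh1 were both called lower, and Cdh1 had no count in ThpokAD libraries. Among all tested genes 4.26% lay above, 2.31% lay below and 2.64% were called higher. Called higher were 9 Treg and 11 residency genes, and without ThpokAD replicate 1 these counts were 5 and 6. The residency count was 7 and 6 without ThpokAD replicates 2 and 3. Summed, the Treg list was 2194 to 2529 CPM in ThpokAD and 2154 to 2395 in CD4 control cells, with overlap. In CD8 control cells it was 1167 to 1486 CPM. The residency list summed to 3558 to 3642 CPM in ThpokAD, 3210 to 3603 in CD4 control and 1562 to 1637 in CD8 control cells. Lrrc32, which anchors latent TGF-beta on Treg cells, was 1.30, 3.14 and 3.90 CPM in CD4 control and 38.8, 39.1 and 42.4 in ThpokAD libraries, with no count in CD8 control cells. It rose 14.4-fold over CD4 control cells (adjusted p = 0.00868) and was at least 1137-fold above the limit set by 3 counts over the CD8 control group. Itgae, the CD103 integrin chain that binds E-cadherin, was 6.21, 2.51 and 0.0583 CPM in CD4 control, 85.1, 48.9 and 65.9 in ThpokAD, and 3.55, 3.92 and 5.89 in CD8 control libraries (18.4-fold over the mean, adjusted p = 0.0155). Its adjusted p was 0.0505 without CD4 control replicate 2 and 0.0781 and 0.0579 without ThpokAD replicates 1 and 3.

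Foxp3, the lineage factor of Treg cells, was 50.1, 11.8 and 25.6 CPM in ThpokAD libraries, 0, 4.52 and 2.33 in CD4 control and at most 0.251 in CD8 control libraries (adjusted p against the mean = 0.0239). The call ended in 5 of 9 fits that left out a library, without CD4 control replicate 3, ThpokAD replicates 1 and 3 and CD8 control replicates 2 and 3, with adjusted p up to 0.122. Il10, the anti-inflammatory cytokine, was 12.1, 10.9 and 3.34 CPM in ThpokAD and 1.66 to 2.21 in CD4 control libraries with no count in CD8 control cells. Its 4.69-fold difference from CD4 control cells did not pass (adjusted p = 0.150). The actin-capping protein gene Capg was 98.5, 55.5 and 73.7 CPM in ThpokAD libraries and 11.02 to 39.2 in the controls (adjusted p against the mean = 0.00280). Rgs1, a brake on chemokine receptor signalling, was 237 to 353 CPM in CD4 control, 607, 494 and 579 in ThpokAD, and 64.5 to 77.1 in CD8 control libraries (1.90-fold over CD4 control cells, adjusted p = 0.0197).

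Inhibitory receptor genes were often higher in CD4 than in CD8 control cells. Of 23 tested, 10 were called higher against the mean and 4 lay above both controls, and 12 were called higher in CD4 control cells. The corresponding shares among all tested genes were 2.64%, 4.26% and 6.55%. The checkpoint receptor gene Pdcd1 was 282 to 529 CPM in ThpokAD and 200 to 317 in CD4 control libraries, which overlap. Havcr2, encoding the receptor TIM-3, was a member, at 12.2, 1.26 and 3.96 CPM in CD4 control, 115, 73.9 and 33.5 in ThpokAD, and 9.82, 7.07 and 8.09 in CD8 control libraries (10.7-fold over the mean, adjusted p = 0.0155). Without ThpokAD replicates 1 and 2 its adjusted p was 0.0831 and 0.0545. Without ThpokAD replicate 3 or CD8 control replicate 3, 8 and 7 genes of this list lay above both controls. Over all tested genes the number above was 1188 and 886 in these fits, against 671 with every library.

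Genes of memory and quiescence were among those below both controls. Of 29 tested, 5 lay below and none above, with 5 called lower and 4 higher, and the median change was 0.04 on the log2 scale. Among all tested genes 2.31% lay below and 4.26% above, with 0.604% called lower and 2.64% higher. Besides Il7r, they were Tcf7, Lef1, Satb1 and Bcl2. Tcf7, the TCF-1 factor of self-renewing memory cells, was 1372, 1559 and 1574 CPM in CD4 control, 641, 687 and 621 in ThpokAD, and 811, 779 and 1165 in CD8 control libraries. It fell 2.31-fold against CD4 control cells (adjusted p = 0.00468), and the 1.41-fold difference from CD8 control cells did not pass (adjusted p = 0.0985). Satb1, a chromatin organiser of T cells, was 691, 596 and 513 CPM in CD4 control, 209, 284 and 310 in ThpokAD, and 419, 450 and 442 in CD8 control libraries (adjusted p against the mean = 0.0114). Bcl2, the survival protein sustained by interleukin 7, was 260, 225 and 165 CPM in CD4 control, 78.0, 128 and 93.8 in ThpokAD, and 264, 238 and 213 in CD8 control libraries (2.27-fold lower than the mean, adjusted p = 0.0155). Leaving out ThpokAD replicate 1 or 3 ended the call of Tcf7 (adjusted p = 0.0726 and 0.0666) and of Bcl2 (0.0696 and 0.0748). The list's called lower genes then numbered 3 and 2.

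Of 29 tested genes of apoptosis and the p53 response, 4 lay above and 1 below, where 4.26% and 2.31% of all tested genes did. The cytokine genes below both controls were Ltb and Il16. Ltb, the lymphotoxin beta gene, was 347, 343 and 278 CPM in ThpokAD libraries and 519 to 750 in the controls (adjusted p = 0.00411). Il16, a chemoattractant for CD4-bearing cells, was 200, 190 and 188 CPM in ThpokAD libraries and 296 to 347 in the controls (adjusted p = 0.00411), and its exons overlap those of Stard5 on the other strand.

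Ly6a, the surface protein Sca-1 induced by interferon, was 144, 152 and 141 CPM in ThpokAD libraries and 284 to 442 in the controls (2.35-fold lower, adjusted p = 0.00266). Of 37 tested interferon-stimulated genes 4 lay below and 1 above, 2 were called lower and 2 higher, and the median was -0.03. The same shares among all tested genes were 2.31%, 4.26%, 0.604% and 2.64%. The gene above was Irf7, the master regulator of type I interferon, at 494, 517 and 466 CPM in ThpokAD libraries and 148 to 296 in the controls (adjusted p = 0.000632). Cxcr3, the receptor that brings T cells to inflamed tissue, was 269, 236 and 224 CPM in ThpokAD and 350 to 546 in control libraries (adjusted p = 0.0203). It missed the threshold when CD4 control replicate 1 was left out (adjusted p = 0.0522) and when each ThpokAD replicate was (0.0673, 0.0858 and 0.0937). Espn, an actin-bundling protein gene, was 4.39, 3.39 and 3.39 CPM in ThpokAD libraries and 9.45 to 39.4 in the controls (5.69-fold lower, adjusted p = 0.00415).

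**Figure D4:**
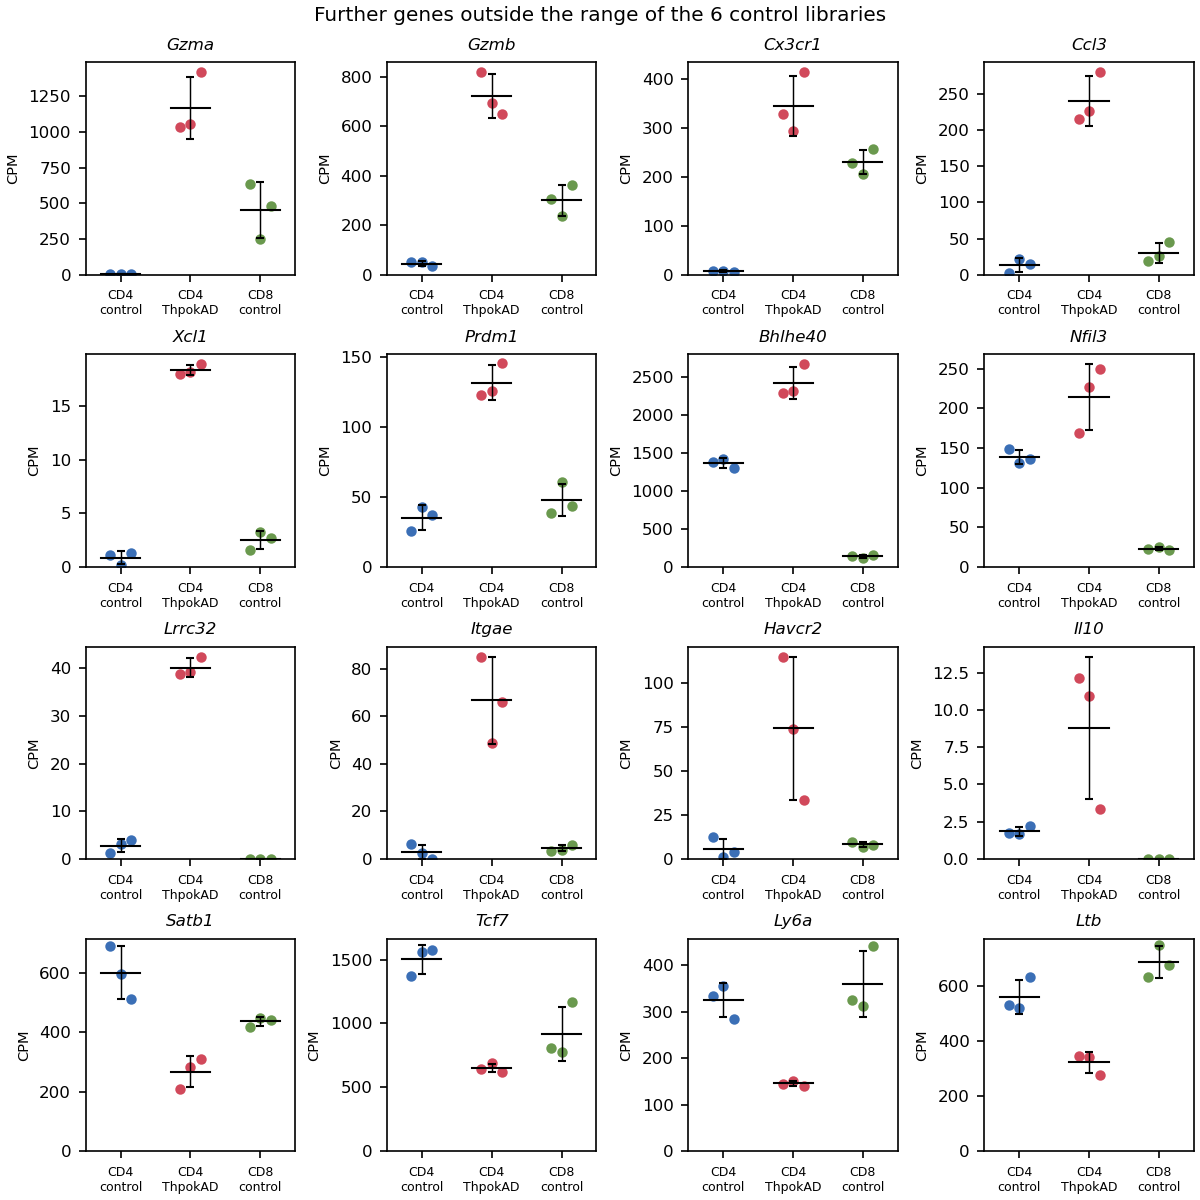
CPM of 16 further members by group, with points for the 3 libraries of each group, horizontal lines for means and bars for SD. The top 12 panels show genes above all 6 control libraries and the bottom 4 show genes below them.

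Several lists had few or no members. None of 29 tested cholesterol and fatty acid synthesis genes lay outside the control range, where 6.58% of all tested genes did. Immediate early and heat shock genes had 16 of 31 called higher but 1 above both controls, and 25 of the 31 were higher in CD4 than in CD8 control cells. Follicular helper genes had 7 of 23 called higher with none above both controls, and 18 were higher in CD4 than in CD8 control cells. The list also had 2 genes below both controls and called lower, Lef1 and Tcf7. Its sum was 2990 to 3962 CPM in ThpokAD, 6070 to 7207 in CD4 control and 1721.5 to 2186 in CD8 control cells. Among all tested genes 2.64% were called higher against the mean and 0.604% lower, and 2.31% lay below both controls. In the comparison of the controls, 6.55% were higher in CD4 than in CD8 control cells. Genes of glycolysis had 1 of 25 above, near the 4.26% of all tested genes; it was the glucose transporter gene Slc2a3, at 311, 369 and 344 CPM in ThpokAD and 72.8 to 267 in control libraries (adjusted p = 0.000992).

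**Figure D5:**
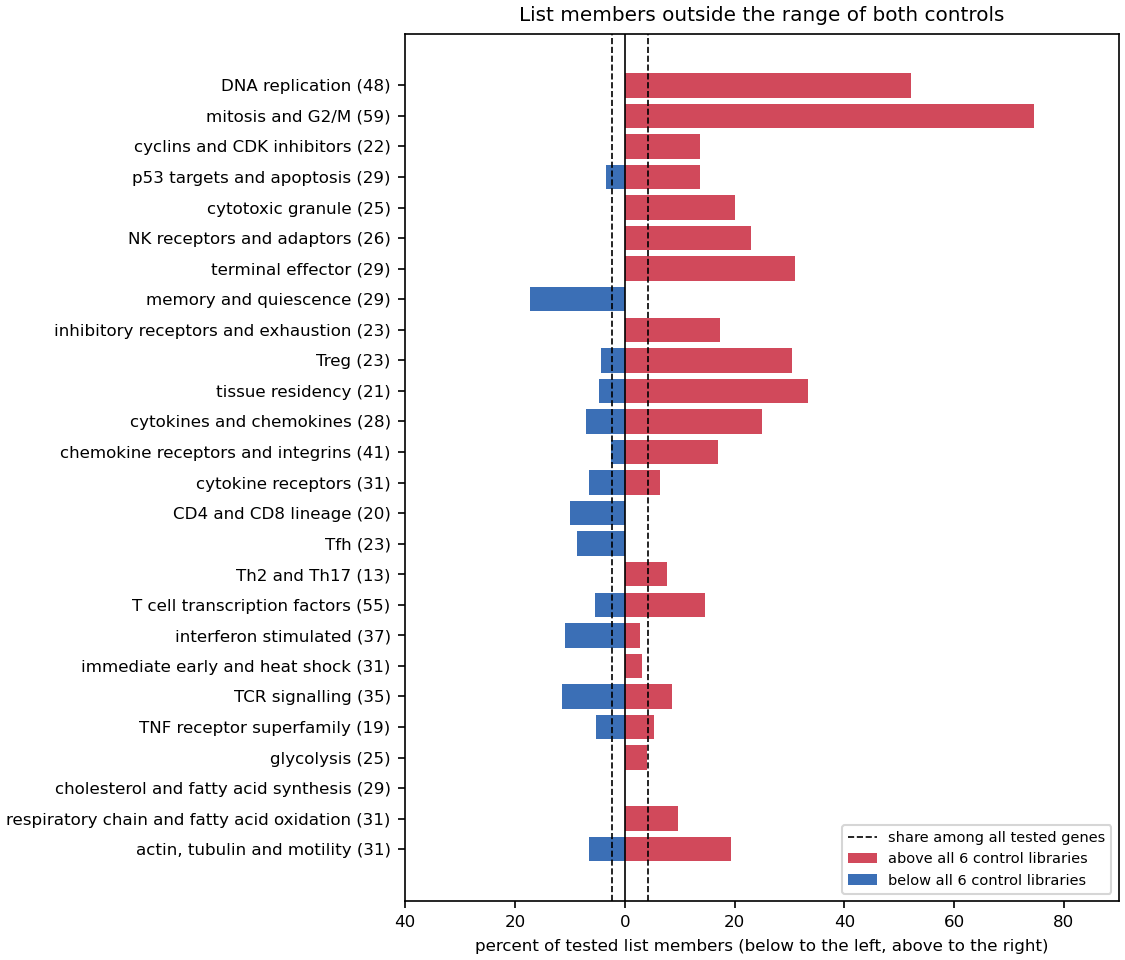
Share of each list's tested genes (number in brackets) that lay above all 6 control libraries, drawn to the right, or below them, drawn to the left, in percent. Dashed lines mark the shares among all tested genes, 4.26% above and 2.31% below; the 2 cell cycle lists reach farthest.

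Some members lie in no list and are named here after their values were seen. There were 8 members with counts in all ThpokAD libraries and none in any control. Arhgef16, a guanine nucleotide exchange factor gene, was 7.63, 10.9 and 10.3 CPM in ThpokAD cells, at least 163-fold above the limit set by 3 counts over the CD4 control group and at least 273-fold above that over the CD8 control group (adjusted p against the mean = 0.00425). Penk, the proenkephalin gene, was 46.4, 31.7 and 53.6 CPM in ThpokAD libraries and at most 2.29 in the controls (adjusted p = 0.00620), with exons that overlap an opposite-strand transcript. Icam1, the adhesion ligand of the Itgal integrin, was 323, 325 and 307 CPM in ThpokAD libraries and 115 to 186 in the controls (adjusted p = 0.00381). Slfn2, which guards T cell quiescence, was 452, 500 and 517 CPM in ThpokAD libraries and 741 to 837 in the controls (adjusted p = 0.00302). Heatr1, a ribosome biogenesis factor, was 48.4, 37.3 and 43.0 CPM in ThpokAD libraries and 76.7 to 116 in the controls (adjusted p = 0.00612).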

How the data were processed

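RNA was measured in 9 libraries of tetramer-sorted mouse spleen T cells, grouped by their titles. The submitters' processing notes name the mm10 build and, as tools, HTSeq, STAR, DESeq2, Trimmomatic and bcl2fastq 2.17, with no role for each. Annotation release and strand setting: not given in the sources used here. Per the labels, libraries were made with the SMARTer Ultra Low Input and Nextera XT reagents. The first deposited table holds whole-number counts per gene, not normalized by the authors. A second deposited table holds a signal scaled by the authors, 1 factor per library, and was used only in alternatives. Such libraries mark no strand, so overlapping genes cannot be told apart, and near-identical paralogs are uncertain.

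Genes passing filterByExpr (minimum count 10, minimum total 15) were fitted with edgeR 4.0.16 in R 4.3.3 (TMM, glmQLFit and glmQLFTest, trended dispersion, 1 coefficient per group, all 9 libraries), with Benjamini-Hochberg adjustment over 15738 genes and a threshold of 0.05. Of 48663 named entries, 15738 were tested. SE was obtained as the absolute log2 fold change over the root of the F statistic. The test against both controls takes the larger p where both differences have 1 sign. A group with no count was set to 3 counts, which covers counting error only. The fits were tested on simulated data. Replicates differed far beyond counting noise (chi-square per degree of freedom 32.3 to 146).

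The members, the 26 pathway and 9 marker lists, the rule for named genes and the alternatives were chosen with earlier results of these data known. Named genes were Zbtb7b, Cd4, Cd8a, Cd8b1 and Tnfrsf4, members passing the test against both controls with a mean of at least 10 CPM, up to 6 called members per list by smallest adjusted p, and each list's best-known genes; others are said to be named after their values were seen. The text describes a part of these, mostly those whose call held whichever library was left out. Coordinates are GENCODE M21 on mm10, 1-based (96.7% of tested symbols matched). Alternatives were other scalings, filters, DESeq2 1.42.0, limma 3.58.1 with a pseudocount of 0.5 on the scaled table, bias-adjusted edgeR, a replicate block, a margin of 1.5 times and leaving out each library. Promoters are the first RefSeq start listed per gene. Some results are not reported here.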

Additional observations from a re-analysis of the deposited data

How the results depend on the processing

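Scaling by DESeq2 size factors or by total counts, a filter of 1 CPM in 3 libraries and no low-count filter kept every count within 1.5 times. The test moved the counts more. Against the mean of both controls, DESeq2 called 877 higher and 419 lower, bias-adjusted edgeR 648 higher, limma-trend 153 lower, and limma with the scaled values called 163 lower. Against both controls, the higher and lower genes were 111 and 62 with DESeq2, 14 and 5 with limma-trend, 48 and 8 with bias-adjusted edgeR, and 31 and 7 on the scaled table. Members called against the mean were 392 above and 233 below with DESeq2, 374 above with bias-adjusted edgeR, and 114 and 113 below with limma-trend and on the scaled table. The cause was not tested. A margin of 1.5 times left 212 genes above and 52 below. With the replicate block, 258 genes were higher and 42 lower, 124 above and 37 below among members, and 1 higher against both controls. After group means were removed, same-numbered libraries of different groups correlated at -0.05 to 0.06 and differently numbered ones at -0.05 to 0.03. In 5 of 18 comparisons a library correlated best with its own number. With 3 libraries a group, this check cannot show whether replicate numbers mark a pairing. Leaving out 1 library gave 183 to 432 higher and 30 to 104 lower genes against the mean, 1 to 6 higher and 3 to 4 lower against both, 757 to 1188 genes above and 482 to 804 below, and 91 to 223 above and 28 to 86 below that were called. Cd8a, at -0.05 on the log2 scale against the mean, ranged from -0.30 to 0.15 when 1 library was left out, above 0 at 0.06 without CD4 control replicate 3 and at 0.15 without ThpokAD replicate 3. With 3 libraries a group, a gene that missed the threshold is not shown to be unchanged.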

Other observations

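The immunoglobulin heavy-chain genes Ighg2c and Igha, named after their values were seen, met the rule on genes below both controls through an absence of counts. Ighg2c had no count in any ThpokAD library and ranged from 0.370 to 653 CPM in the controls, with CD4 control replicate 3 highest (adjusted p against the mean = 0.283). Igha had no count in any ThpokAD library and ranged from 0.418 to 493 CPM in the controls, with CD8 control replicate 2 highest (adjusted p = 0.237). The light-chain gene Igkc was 43.9 to 211 CPM in ThpokAD and 11.1 to 563 in control libraries, with overlap. The summed plasma cell list was 418 to 637 CPM in ThpokAD, 641 to 1269 in CD4 control and 166 to 908 in CD8 control libraries, so ThpokAD libraries lay below all CD4 control libraries and within the range of CD8 control libraries.

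Rccd1 and Prc1, whose exons overlap on opposite strands, were both called members in opposite directions. Rccd1 was 6.39, 8.97 and 10.7 CPM in ThpokAD libraries and 13.9 to 39.6 in the controls (adjusted p = 0.0404, lost in 7 of 9 fits that left out a library, with adjusted p up to 0.159). Prc1, a microtubule-bundling protein of the spindle midzone, was 74.5, 56.4 and 38.7 CPM in ThpokAD libraries and 2.55 to 11.2 in the controls (adjusted p = 0.00479). Within 250 kb of Tnfrsf4, the gene of Ox40, none of 24 tested genes lay above both controls, 2 lay below (Plekhn1 and Noc2l) and none was called. The shares among all tested genes were 4.26%, 2.31% and 3.24%.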
